A study of Rattus norvegicus with 9 samples.

Results

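The genes described here are 10 members of the unfolded protein response and the integrated stress response, Atf3, Atf4, Ddit3, Trib3, Chac1, Asns, Sesn2, Hspa5, Hsp90b1 and Xbp1. They were chosen by symbol from the 34092 genes of the expression table, and each symbol matched 1 row. RNA was measured in 9 libraries of primary hippocampal neurons from wild-type rat foetuses taken on embryonic day 17, grown without mitotic inhibitors and used at 7 days in vitro. For 24 h the cells were exposed to vehicle (the controls), to 1 nM human aminoprocalcitonin (NPCT, the amino-terminal peptide of procalcitonin) or to 1 nM human procalcitonin (PCT, its parent peptide), with 3 libraries in each of the 3 groups. The labels number 3 replicates per group, whereas the methods speak of RNA from pooled triplicates, so the p-values below measure the spread between these libraries, which may in part be technical. Levels are FPKM, fragments scaled to the length of the gene and to a size set for each library, and can therefore be compared between genes. That size was not the sum of fragments on genes. A gene counted as differentially expressed (DEG) when its fold change exceeded 1.5 and its adjusted p did not exceed 0.05 (limma with Benjamini-Hochberg adjustment over the 15958 genes whose mean level reached 0.5 FPKM). All 10 members passed this filter on low values.

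Cells answer unfolded protein in the endoplasmic reticulum (ER), lack of amino acids and other stress with kinases that phosphorylate the translation factor eIF2, which lowers protein synthesis overall while the mRNA of the transcription factor ATF4 is translated more. ATF4 drives the transcription of further factors (Atf3, Ddit3), of regulators (Trib3, Chac1, Sesn2) and of amino acid enzymes (Asns), whereas the sensors ATF6 and IRE1, the latter by splicing Xbp1 mRNA, drive ER chaperones such as Hspa5 and Hsp90b1. These values are totals of mRNA per gene, so neither the spliced part of Xbp1 nor the phosphorylation or translation steps were measured.

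The libraries held 13573056 to 17211642 fragments on genes. Within every group the libraries differed beyond sampling noise, and NPCT replicate 3 and PCT replicate 3 stood apart from their groups (chi-square over genes per degree of freedom of 11.3 and 11.4 for NPCT 3 and of 20.2 and 23.0 for PCT 3, and 4.34 to 6.70 in the other 5 pairs). Mitochondrial genes took 5.18% to 5.84% of the fragments in the controls, 3.70% to 4.17% with NPCT and 6.21%, 5.46% and 4.11% with PCT. The slope of the log2 level on each doubling of gene length was -0.026 to -0.018 with NPCT and -0.028 in PCT 3, but -0.001 to 0.028 in the other 5 libraries. The neuron marker Map2 lay between 193.7 and 195.4 FPKM in the controls, between 155.6 and 198.6 FPKM with PCT and between 125 and 158.9 FPKM with NPCT. Of 17 neuron markers tested, 13 were lower with NPCT than with vehicle (median log2 fold change -0.24, 0 DEGs beside 0.219% of all genes). In 10 of the 13 every NPCT library lay below every control, which held for 3243 of the 15958 genes tested. The summed level of the 17 was 2377 to 2466 FPKM with NPCT, 2559 to 2653 FPKM in the controls and 2494 to 2743 FPKM with PCT. The astrocyte marker Gfap lay between 734.2 and 937.9 FPKM and the oligodendrocyte lineage marker Olig2 between 54.5 and 67.5 FPKM in the 9 libraries, so the RNA was not of neurons alone. The summed level of 17 microglia markers was 81.3 to 95.1 FPKM in the controls, 54.1 to 58.9 FPKM with PCT, 91.6 and 86.4 FPKM in NPCT 1 and NPCT 2 and 273.9 FPKM in NPCT 3. Siglech was listed at 0 in 8 of the 9 libraries and Fcgr1a in 2 PCT libraries. Of the 16 microglia markers tested, 6 were DEGs, all lower, with PCT, where 2.31% of all genes were DEGs (94 higher and 274 lower). Astrocyte markers summed to 2493 to 2673 FPKM in the controls, 2452 to 2712 FPKM with NPCT and 2150 to 2217 FPKM with PCT. Of 10 tested, 5 were DEGs with PCT, all lower (2.31% of all genes). NPCT stood apart from both other groups in the summed levels of 11 oligodendrocyte lineage markers (518.1 to 554.2 FPKM, against 475.2 to 491.9 in the controls and 431.6 to 450.1 with PCT) and of 7 fibroblast markers (61.97 to 77.96 FPKM, against 88.48 to 96.37 and 90.87 to 110.0). Olig1 made up much of the oligodendrocyte sum, with means of 273.5 FPKM with NPCT, 271.5 in the controls and 190.7 with PCT. Gene by gene, 9 of the 11 were higher with PCT than with vehicle (median log2 fold change 0.22), unlike the sum. With NPCT 10 of the 11 were higher than with vehicle (median 0.38), and 7 were higher than with PCT (median 0.16). Of the fibroblast markers Fn1 differed most between NPCT and vehicle (means of 27.37 and 43.41 FPKM, and 40.43 with PCT). Against vehicle its log2 fold change was -0.66 and that of Lum -0.43, and the others lay between -0.16 and 0.03. Pdgfra stands in both the fibroblast and the oligodendrocyte lists. In bulk RNA, fewer cells of a type and less RNA per cell cannot be told apart. The part of other cells in the results below was not tested.

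In the controls the members covered a wide range. Atf4 had the highest level (137.2 ± 2.99 FPKM, SD, n = 3 here and throughout), followed by the ER chaperones Hspa5 (127.9 ± 3.50 FPKM) and Hsp90b1 (113 ± 1.43 FPKM), by Asns (75.7 ± 4.24 FPKM), Xbp1 (58.1 ± 3.97 FPKM) and Sesn2 (38.9 ± 1.13 FPKM). Then came Ddit3 (19.9 ± 3.55 FPKM), Chac1 (18.8 ± 0.777 FPKM), Trib3 (13.1 ± 0.931 FPKM) and, far below, Atf3 (2.75 ± 0.150 FPKM). The control libraries of each gene lay clear of those of the next gene in this order, except for Ddit3 and Chac1, which overlapped. Atf3 was also the member with the fewest fragments in 8 of the 9 libraries, 109 to 305 per library (in PCT 2 Chac1 had 301 and Atf3 305).

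**Figure D1:**
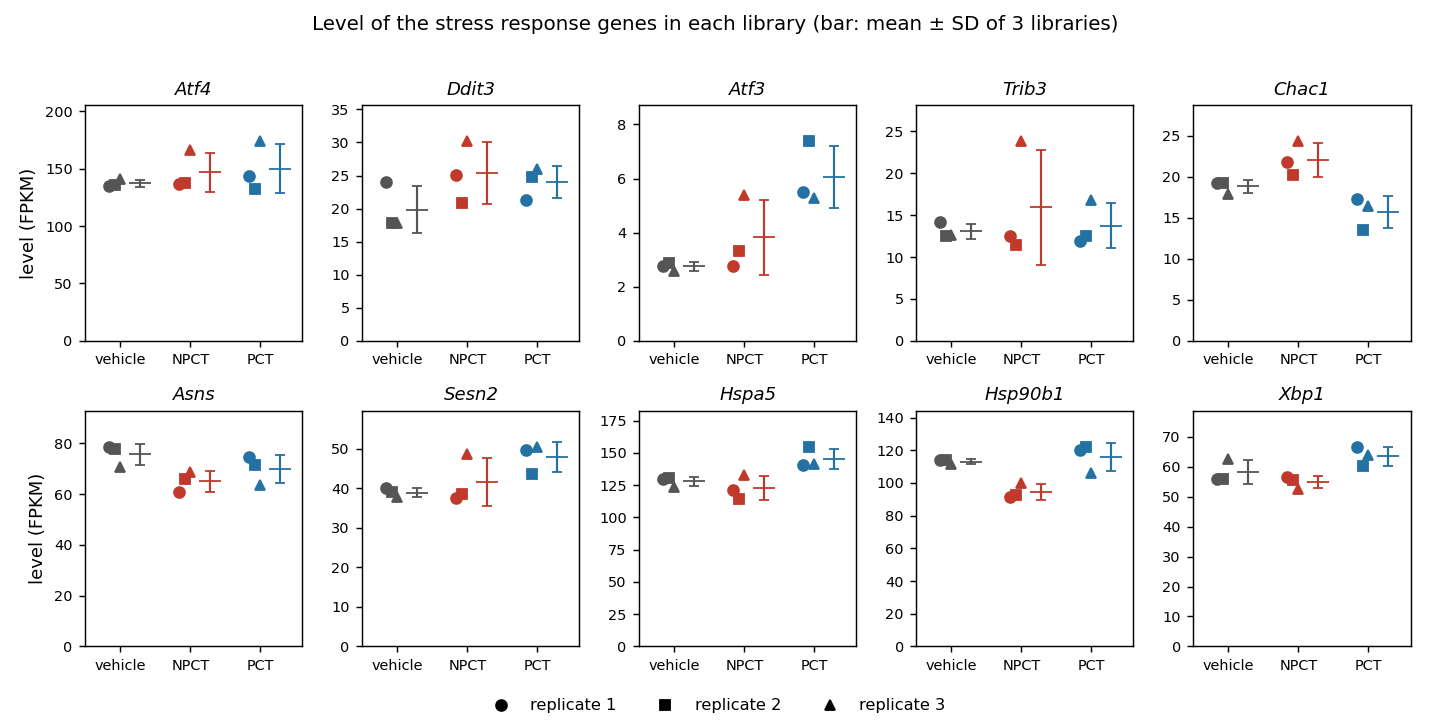
Level of each of the 10 members in FPKM (vertical axes, each from 0) in control (vehicle), NPCT and PCT libraries; symbols give the replicate number and the bars the mean ± SD of 3 libraries. Atf3 was higher in all 3 PCT libraries than in any control, Chac1 lay above the controls with NPCT and below them with PCT, and NPCT 3 (triangle) was the highest NPCT library in 9 of the 10 genes.

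Which of these genes differed after exposure to each peptide was asked first, and then whether the peptides differed from each other. With PCT, 1 of the 10 members was a DEG against vehicle, Atf3, which rose, against 2.31% of all genes tested. It was also the only member with an adjusted p of at most 0.05 at any fold (4.20% of all genes). With NPCT, 0 of 10 were DEGs (0.219% of all genes) and 0 had an adjusted p of at most 0.05 (0.470% of all genes). The share of 0.219% stands for 35 DEGs, a count that depended strongly on the processing. It was 0 to 562 over the omission of single libraries and 579 with only the 2 groups fitted. At an unadjusted p under 0.05 there were 4 members with PCT (18.9% of all genes) and 2 with NPCT, a share below the 29.3% of all genes. Between the peptides, 0 of 10 were DEGs (5.75% of all genes), but 3 members, Chac1, Hspa5 and Hsp90b1, had an adjusted p of at most 0.05 with fold changes below the threshold (16.3% of all genes), and 5 had an unadjusted p under 0.05 (33.1% of all genes).

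The 3 PCT libraries lay wholly to one side of the 3 controls in 4 members, Atf3, Sesn2 and Hspa5 above and Chac1 below, where 24.9% of all genes were so separated and 13.1% in the upward direction. NPCT libraries were so separated from the controls in 3 members, Chac1 above and Asns and Hsp90b1 below, where the share of all genes was 40.3%, higher than that of the members. Against PCT, NPCT was separated in 4 members, Chac1 above and Hspa5, Hsp90b1 and Xbp1 below, with 33.4% of all genes separated and 18.0% in the downward direction. The median log2 fold change of the members was 0.12 with PCT, 0.09 with NPCT and -0.16 for NPCT against PCT, beside 0.005, 0.006 and -0.008 for all genes tested. The 2 comparisons with vehicle share their control libraries.

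**Figure D2:**
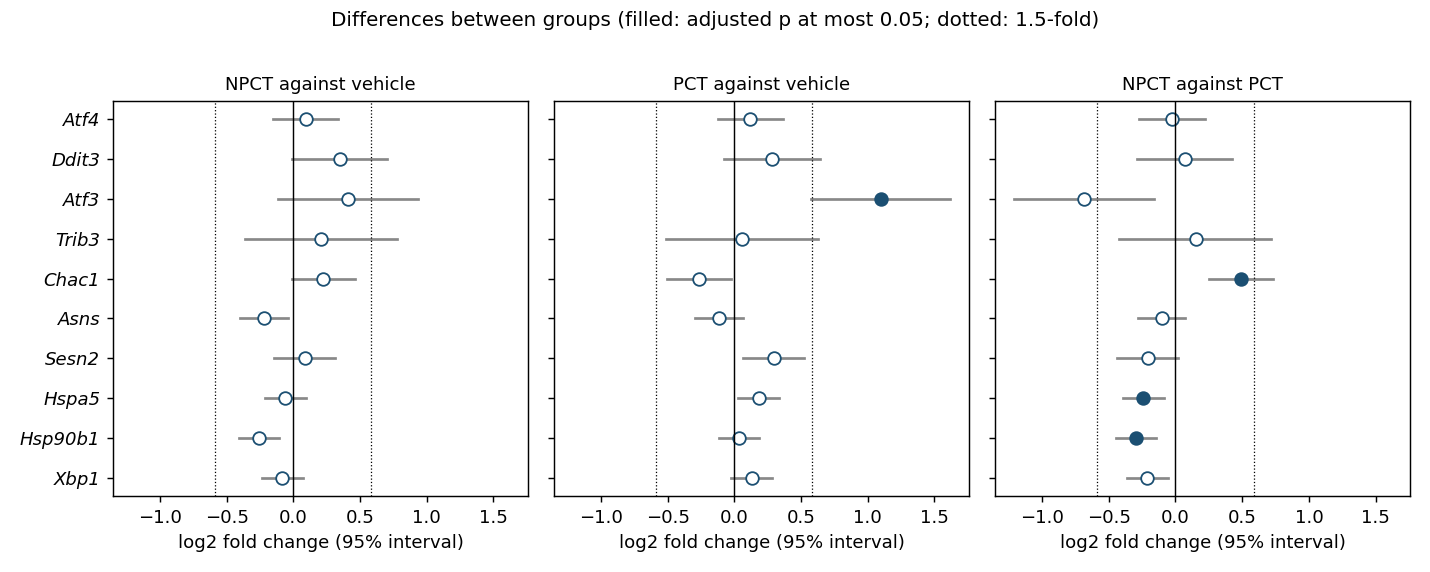
Log2 fold change of the 10 members (horizontal axes) in the 3 comparisons, with 95% intervals from limma; filled points have an adjusted p of at most 0.05 and dotted lines mark a 1.5-fold difference. Atf3 with PCT is the only filled point beyond a dotted line, and Chac1, Hspa5 and Hsp90b1 are filled for NPCT against PCT.

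Of the transcription factors, Atf4 (ENSRNOG00000017801, Rnor_6.0 chr7:121480723-121482772) encodes the central factor of the integrated stress response. It measured 134.9, 136.2 and 140.6 FPKM in the controls, 143.4, 132.7 and 173.8 FPKM with PCT, and 136.5, 137.7 and 166.5 FPKM with NPCT. Replicate 3 was the highest library of both peptide groups, and the others overlapped with or lay close to the controls. The log2 fold change was 0.12 with PCT (95% interval -0.13 to 0.37, adjusted p = 0.621) and 0.09 with NPCT (-0.15 to 0.34, adjusted p = 0.602). Without NPCT 3 the latter was -0.0012.

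Ddit3 (ENSRNOG00000006789, chr7:70580198-70585084) encodes CHOP, a factor known for its part in cell death after prolonged ER stress. It was 23.96, 17.77 and 17.85 FPKM in the controls, 21.35, 24.71 and 25.94 FPKM with PCT, and 25.05, 20.86 and 30.17 FPKM with NPCT. The first control library lay within the range of both peptide groups, so the groups overlapped. The log2 fold change was 0.28 ± 0.16 (SE) with PCT (adjusted p = 0.383) and 0.35 ± 0.16 with NPCT (adjusted p = 0.179).

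Atf3 (ENSRNOG00000003745, chr13:109817728-109849632), a factor induced early in many kinds of stress, measured 2.78, 2.88 and 2.59 FPKM in the controls and 5.49, 7.38 and 5.29 FPKM with PCT. All 3 PCT libraries lay well above the controls, with group means of 6.05 ± 1.15 and 2.75 ± 0.150 FPKM, and the rise was 2.14-fold (log2 1.10 ± 0.23 SE, 95% interval 0.57 to 1.62, adjusted p = 0.0359). With NPCT the libraries gave 2.78, 3.33 and 5.41 FPKM. NPCT 1 was within the range of the controls and NPCT 3 within that of PCT, and the log2 fold change of 0.41 ± 0.23 did not pass the test (adjusted p = 0.266). This fold change ranged from 0.14 to 0.61 over the omission of single libraries. NPCT and PCT differed by -0.68 (95% interval -1.21 to -0.16, adjusted p = 0.0760), and without NPCT 3 by -0.95 (adjusted p = 0.0182). The rise with PCT was log2 0.90 to 1.2 under the alternatives tried, some of which cannot change a fold change. The adjusted p exceeded 0.05 without control 1 (0.122), control 2 (0.0986), control 3 (0.115), PCT 1 (0.0588), PCT 2 (0.108) or NPCT 2 (0.0561), with no filter on low values (0.0581) and with the replicate number as a block (0.0586). Without PCT 3 it was 0.0480, and without NPCT 3 it was 0.00757.

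Trib3 and Chac1 encode regulators that ATF4 and CHOP switch on. Trib3 (ENSRNOG00000007319, chr3:147813473-147819571) encodes a pseudokinase that damps the response. It was 14.15, 12.48 and 12.60 FPKM in the controls, 11.91, 12.54 and 16.79 FPKM with PCT, and 12.56, 11.45 and 23.82 FPKM with NPCT. In both peptide groups 2 libraries were within or below the range of the controls and the third was the highest. The log2 fold change of 0.21 with NPCT (95% interval -0.36 to 0.78, adjusted p = 0.617) became -0.12 without NPCT 3, and that of 0.06 with PCT (-0.51 to 0.63, adjusted p = 0.939) became -0.095 without PCT 3.

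Chac1 (ENSRNOG00000014387, chr3:111160205-111163425) encodes an enzyme that degrades glutathione. It was the only member whose NPCT libraries lay all on one side of the controls and whose PCT libraries lay all on the other. It measured 19.28, 19.25 and 17.92 FPKM in the controls, 21.74, 20.16 and 24.30 FPKM with NPCT, and 17.27, 13.49 and 16.38 FPKM with PCT. Neither difference from vehicle passed the test (log2 0.23 ± 0.10 SE, adjusted p = 0.189 with NPCT, and -0.27 ± 0.10, adjusted p = 0.208 with PCT). NPCT exceeded PCT 1.41-fold (log2 0.49, 95% interval 0.25 to 0.73, adjusted p = 0.0181). The adjusted p of this difference was 0.0560 without NPCT 1, 0.0540 without NPCT 3 and 0.0637 when only these 2 groups were fitted.

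To show what the start regions of these regulators share, 300-base promoter windows (250 bases before and 50 after the start, RefSeq, build GRCr8) were searched on both strands. Windows were found for 9 of the 10 members, all but Atf3. The C/EBP-ATF response element, searched as TGATGNAAN, through which ATF4 and its partners are known to bind, was in 2 of the 9, Chac1 and Trib3, and in 3.97% of all 33469 windows. The stretches around it are printed 5′ to 3′ on the gene's strand, with the fixed bases of the element, here read on the opposite strand, in capitals. They lie at chr3:126795933-126796001 (plus strand) for Chac1, where the element is 168 to 160 bases before the start, and at chr3:161275534-161275585 (minus strand) for Trib3, where it is 22 to 14 bases before the start.
Chac1: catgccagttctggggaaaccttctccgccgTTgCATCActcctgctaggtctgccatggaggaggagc
Trib3: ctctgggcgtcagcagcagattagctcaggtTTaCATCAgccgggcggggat
Of the 2 genes that hold these letters, Chac1 differed between the peptides and Trib3 did not pass the test (log2 0.15, 95% interval -0.42 to 0.72, adjusted p = 0.716). The cAMP response element TGACGTCA was in 0 of the 9 windows and in 1.83% of all windows, and TGACGTGG, the unfolded protein response element, which begins with the same letters TGACGT, was in 0 of the 9 and in 0.595% of all windows. A match is a description of the letters in the window and does not show binding. Its part in the differences between the groups was not tested.

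Asns (ENSRNOG00000007546, chr4:33743364-33761163) encodes asparagine synthetase, a standard target of ATF4 in amino acid shortage. It was 78.58, 77.72 and 70.84 FPKM in the controls, 60.68, 65.82 and 68.79 FPKM with NPCT, and 74.76, 71.38 and 63.75 FPKM with PCT. The NPCT libraries lay all below the controls, while PCT overlapped with both groups. The log2 fold change with NPCT was -0.22 (95% interval -0.40 to -0.04, adjusted p = 0.110), and the adjusted p was 0.0459 without PCT 3, which enters the shared estimate of the spread.

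Sesn2 (ENSRNOG00000042785, chr5:150684133-150704117) encodes sestrin 2, an inhibitor of mTORC1 signalling that senses leucine. It measured 40.02, 39.05 and 37.76 FPKM in the controls, 49.61, 43.53 and 50.46 FPKM with PCT, and 37.62, 38.57 and 48.61 FPKM with NPCT. The 3 PCT libraries were above the 3 controls, whereas NPCT 1 and NPCT 2 were at the level of the controls and NPCT 3 at that of PCT. The log2 fold change with PCT was 0.29 ± 0.10 SE and did not pass the test (95% interval 0.06 to 0.52, adjusted p = 0.154). With NPCT it was 0.09 (-0.14 to 0.32, adjusted p = 0.608) and, without NPCT 3, -0.031. NPCT against PCT gave -0.21 (adjusted p = 0.189), and an adjusted p of 0.0401 without NPCT 3.

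On the ER side of the response, both chaperones were lower with NPCT than with PCT. Hspa5 (ENSRNOG00000018294, chr3:13838304-13842762) encodes BiP, the chief chaperone of the ER, which also holds the stress sensors inactive. It was 129.6, 130.2 and 123.9 FPKM in the controls, 140.3, 154.6 and 141.2 FPKM with PCT, and 121.5, 114.6 and 132.7 FPKM with NPCT. The PCT libraries lay above both other groups, and the NPCT libraries overlapped with the controls. Against vehicle the log2 fold change was 0.18 ± 0.068 SE with PCT (adjusted p = 0.182) and -0.06 ± 0.068 with NPCT (adjusted p = 0.591). NPCT was lower than PCT by -0.24 on the log2 scale (95% interval -0.40 to -0.09, adjusted p = 0.0427). This adjusted p exceeded 0.05 in 11 of 21 alternatives, including the omission of control 1 (0.0708), control 2 (0.0702), control 3 (0.0643), PCT 1 (0.0780), PCT 2 (0.131), NPCT 1 (0.118) or NPCT 2 (0.120).

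Hsp90b1 (ENSRNOG00000026963, chr7:27226569-27240533) encodes GRP94, the HSP90 of the ER. It measured 113.8, 113.8 and 111.3 FPKM in the controls, 91.2, 92.6 and 100.1 FPKM with NPCT, and 120.1, 122.0 and 106.2 FPKM with PCT. All 3 NPCT libraries were below both other groups. The log2 fold change with NPCT against vehicle was -0.26 ± 0.066 SE (95% interval -0.41 to -0.11, adjusted p = 0.0593). It was the smallest adjusted p of the 10 members in that comparison. In 4 of 21 alternatives it was at most 0.05: without PCT 3 (0.0101), with NPCT 3 and PCT 3 both left out (0.00969), with only the 2 groups fitted (0.0158) and with limma-voom (0.0490). PCT differed from vehicle by 0.04 (-0.11 to 0.19, adjusted p = 0.827). NPCT was lower than PCT by -0.29 (95% interval -0.44 to -0.14, adjusted p = 0.0217), with an adjusted p of 0.0718, 0.0726, 0.0785 and 0.0621 without PCT 1, PCT 2, NPCT 1 and NPCT 2.

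Xbp1 (ENSRNOG00000010298, chr14:85753760-85758145) encodes the factor that IRE1 activates by splicing. It was 55.85, 55.80 and 62.70 FPKM in the controls, 66.55, 60.19 and 63.83 FPKM with PCT, and 56.58, 55.44 and 52.56 FPKM with NPCT. The NPCT libraries lay below all PCT libraries, and both groups overlapped with the controls. NPCT against PCT gave -0.21 (95% interval -0.36 to -0.06, adjusted p = 0.0630), and an adjusted p of 0.0197 once a trend on gene length was taken out of every library. The ratio of NPCT to PCT was 0.864 for Xbp1, 0.845 for Hspa5 and 0.816 for Hsp90b1, beside 0.865 for Sesn2 and 0.623 for Atf3, and of these 5 only the 2 chaperones had an adjusted p of at most 0.05.

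The promoter windows of Hspa5, Hsp90b1 and Xbp1 held the ER stress element, the letters CCAAT and CCACG kept 9 bases apart, through which ATF6 and XBP1 act. It was in 3 of the 9 members' windows and in 22 of all 33469 windows (0.0657%), searched on both strands. The element is printed 5′ to 3′ on the gene's strand, with its fixed bases in capitals, at chr3:38452943-38453015 (plus strand) for Hspa5, at chr7:23012317-23012499 (minus strand) for Hsp90b1 and at chr14:84604528-84604606 (plus strand) for Xbp1 in GRCr8.
Hspa5: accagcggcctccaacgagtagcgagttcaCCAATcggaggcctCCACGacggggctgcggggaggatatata
Hsp90b1: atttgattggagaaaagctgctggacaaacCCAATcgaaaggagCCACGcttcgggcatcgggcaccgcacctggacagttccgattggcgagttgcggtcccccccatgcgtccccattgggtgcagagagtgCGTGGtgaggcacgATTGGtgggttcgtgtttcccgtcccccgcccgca
Xbp1: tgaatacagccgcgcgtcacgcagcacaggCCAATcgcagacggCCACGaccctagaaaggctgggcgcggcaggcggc
Hsp90b1 held 2 copies, the one nearer the start on the opposite strand. The windows of Hspa5 and Xbp1 held 1 copy each, 43 to 25 and 65 to 47 bases before the start. Sesn2 did not hold these letters in its window, and Atf3 had no window to search. The part of the element in the differences between the peptides was not tested. The ratios of NPCT to PCT of Sesn2 and Xbp1, alike in the main fit, depended on the setting. Without NPCT 3 the log2 difference between the peptides was -0.33 for Sesn2 and -0.18 for Xbp1. With the gene length trend removed it was -0.21 for Sesn2 and -0.32 for Xbp1.

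NPCT 3 differed from NPCT 1 and NPCT 2 across the set. It was the highest of the 3 NPCT libraries in 9 of 10 members, all but Xbp1, and the highest of all 9 libraries in Chac1, Ddit3 and Trib3. Its log2 departure from the mean of NPCT 1 and NPCT 2 was 0.98 for Trib3, 0.81 for Atf3, 0.40 for Ddit3, 0.35 for Sesn2 and 0.28 for Atf4, and 0.12 to 0.21 for Chac1, Asns, Hspa5 and Hsp90b1. The median over the members was 0.25, beside 0.006 over all genes tested. In the same library 31 of 38 other targets of ATF4, 19 of 21 aminoacyl-tRNA synthetase genes, 23 of 28 other ER chaperones and folding enzymes and 17 of 18 cytosolic heat shock genes were higher than in NPCT 1 and NPCT 2, with medians of 0.14, 0.14, 0.13 and 0.11, where 8145 of 15958 genes tested were higher. Of the genes of ER-associated degradation 23 of 27 were higher, with a median of 0.105. Of the stress sensors and eIF2 control genes 15 of 24 were higher, with a median of 0.05. The 16 microglia markers tested were all higher, with a median of 1.98, and the 6 proliferation markers all lower, with a median of -0.55. Medians were 0.30 for oligodendrocyte lineage (6 of 11 higher), -0.10 for astrocyte (5 of 10), -0.07 for neuron (6 of 17) and -0.10 for fibroblast markers (2 of 7). Without NPCT 3 the median of the members with NPCT against vehicle was -0.041 in place of 0.09. In PCT 3 the departures from PCT 1 and PCT 2 were 0.46 for Trib3, 0.33 for Atf4 and 0.18 for Ddit3, but -0.26 for Atf3, -0.20 for Asns and -0.19 for Hsp90b1, and 6 of 10 members were higher.

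**Figure D3:**
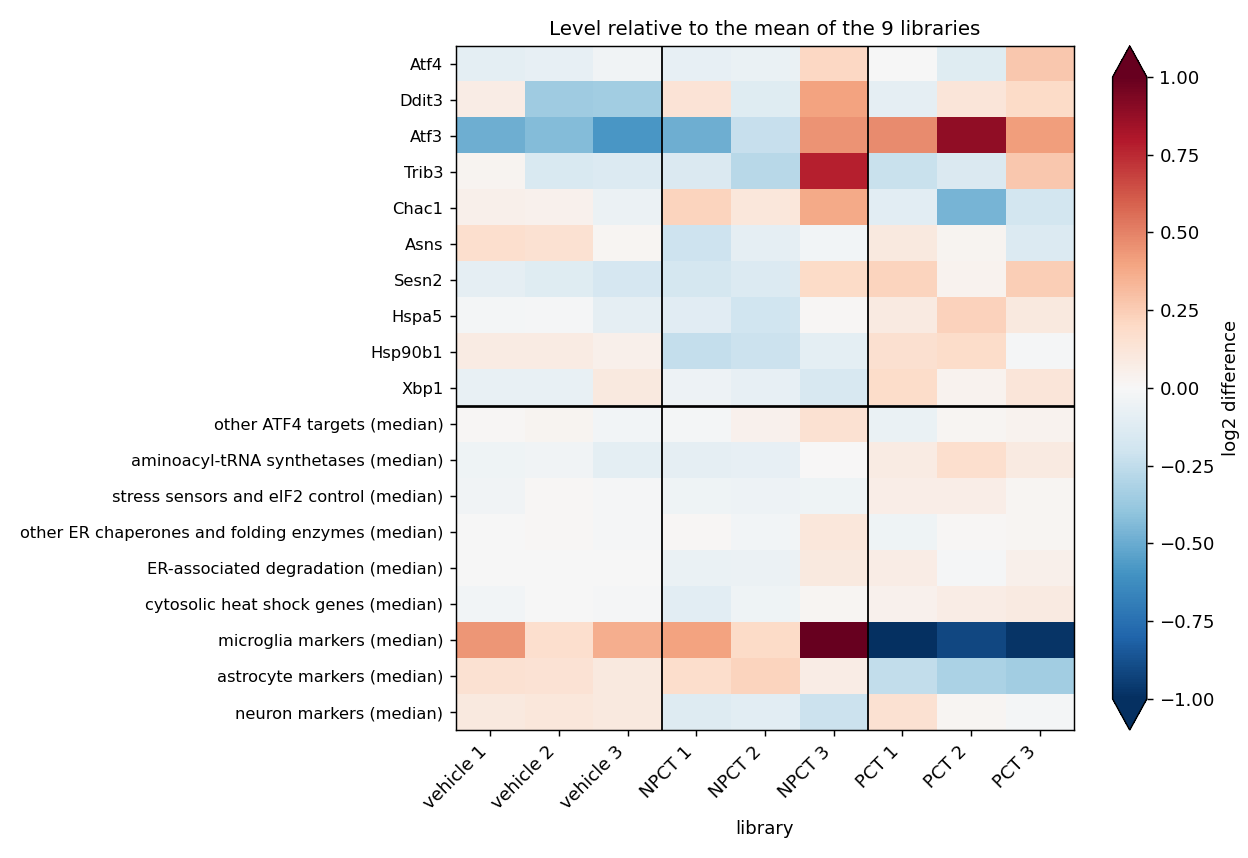
Log2 level of each member and median log2 level of gene lists and marker lists in each of the 9 libraries relative to the mean of the 9 (red above, blue below; colours end at 1 and -1). Atf3 is red in the 3 PCT libraries and NPCT 3, Hsp90b1 is blue in the 3 NPCT libraries, and NPCT 3 is also the library with the highest microglia markers.

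The genes around the members were described through 6 lists. Other targets of ATF4 (38 tested) went both ways with PCT, with 3 DEGs higher and 4 lower and a median log2 fold change of 0.02. Among all genes 2.31% were DEGs with PCT, 94 higher and 274 lower. The rises were Ppp1r15a, which encodes GADD34, the eIF2 phosphatase subunit that ends the stress response (9.89 ± 1.42 to 23.5 ± 5.14 FPKM, log2 1.23 ± 0.18 SE, adjusted p = 0.00726), the stress cytokine Gdf15 (16.4 ± 1.72 to 45.5 ± 6.59 FPKM, log2 1.46 ± 0.24, adjusted p = 0.0139) and the translation repressor Eif4ebp1 (34.0 ± 3.36 to 58.7 ± 10.7 FPKM, log2 0.78 ± 0.13, adjusted p = 0.0151). All 3 PCT libraries lay above the controls in these 3 genes. The falls were Slc7a11, the cystine transporter subunit (92.9 ± 7.63 to 39.2 ± 3.80 FPKM, log2 -1.24 ± 0.11, adjusted p = 5.95e-04), Psat1 of serine synthesis (132.6 ± 7.70 to 81.3 ± 4.38 FPKM, log2 -0.70 ± 0.067, adjusted p = 9.88e-04), Ddit4, an mTORC1 inhibitor (124.8 ± 8.55 to 66.4 ± 13.2 FPKM, log2 -0.93 ± 0.13, adjusted p = 0.00552), and Cbs of cysteine synthesis (9.77 ± 0.201 to 6.45 ± 0.402 FPKM, log2 -0.59 ± 0.075, adjusted p = 0.00384). Eif4ebp1 lost its call without control 1 or control 3 (adjusted p = 0.0731 and 0.0618), and Gdf15 without control 1, control 2, control 3 or PCT 2 (0.0524, 0.0617, 0.0557 and 0.0504). Cbs, close to the fold threshold, fell below it in 6 of 21 alternatives, without control 3 or PCT 3 (log2 -0.58 and -0.55), with a pseudocount of 1 (-0.53), with the gene length trend removed, with or without the block (-0.56), and with NPCT 3 and PCT 3 both left out (-0.55).

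With NPCT the same list held 0 DEGs against vehicle, 13 of 38 genes with an unadjusted p under 0.05, where 29.3% of all genes had one, and a median of 0.12. Eif4ebp1 was 53.44, 53.66 and 62.48 FPKM with NPCT against 30.68, 37.39 and 33.91 FPKM in the controls (log2 0.73 ± 0.13 SE, adjusted p = 0.0508). Its NPCT libraries all lay above the controls, as its PCT libraries did. Ppp1r15a was 14.33, 15.72 and 20.04 FPKM with NPCT against 8.97, 9.18 and 11.53 FPKM in the controls (log2 0.74 ± 0.18 SE, adjusted p = 0.0541). Gdf15 was 22.50, 28.95 and 48.27 FPKM against 17.94, 14.57 and 16.81 FPKM (log2 0.94 ± 0.24, adjusted p = 0.0593). Ppp1r15a and Gdf15 also lay above the controls in every NPCT library. Over the omission of single libraries the adjusted p ranged from 0.0111 to 0.173 for Ppp1r15a and from 0.0331 to 0.182 for Gdf15, and among these omissions both were DEGs only without PCT 3. Both were also DEGs with only the 2 groups fitted (adjusted p = 0.0186 for Ppp1r15a and 0.0444 for Gdf15), with the replicate block (0.0379 and 0.0443), with limma-voom (0.0360 and 0.0420) and with NPCT 3 and PCT 3 both left out (0.0223 and 0.0344), and Ppp1r15a at a mean FPKM of at least 1 (0.0496) and with the block and the gene length trend removed (0.0470). Without NPCT 3 the log2 fold changes were 0.61 and 0.64.

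Between the peptides 5 of the 38 were DEGs (5.75% of all genes), all higher with NPCT, as were 699 of the 918 DEGs among all genes, and 14 had an adjusted p of at most 0.05 (16.3% of all genes). They were Psat1 (log2 0.79 ± 0.067 SE, adjusted p = 4.25e-04), Cbs (0.83 ± 0.075, adjusted p = 5.44e-04), Ddit4 (1.10 ± 0.13, adjusted p = 0.00184), Slc7a11 (0.92 ± 0.11, adjusted p = 0.00192) and Cebpb, a partner of ATF4 on DNA (0.65 ± 0.14, adjusted p = 0.0176). Psat1, Cbs, Ddit4 and Slc7a11 were those that fell with PCT against vehicle, and the comparisons share the PCT libraries. Cebpb lost its call in 8 of 21 alternatives, without PCT 1, PCT 3, NPCT 1 or NPCT 3 (adjusted p = 0.0606, 0.0205, 0.0503 and 0.0477, in 2 of them through its fold change of 0.57 and 0.53 on the log2 scale), with only the 2 groups fitted (adjusted p = 0.0577), with the gene length trend removed, with or without the block (log2 0.56), and with NPCT 3 and PCT 3 both left out (log2 0.45).

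Aminoacyl-tRNA synthetases with the tRNA export factor Xpot (21 tested), many of them known targets of ATF4, were higher with PCT in 20 of 21 genes, but 0 were DEGs. The median log2 fold change was 0.20, 13 of 21 had all PCT libraries above all controls (13.1% of all genes), 12 had an unadjusted p under 0.05 (18.9% of all genes), and 2 an adjusted p of at most 0.05 (4.20% of all genes), Rars (log2 0.31, adjusted p = 0.0282) and Yars (0.28, adjusted p = 0.0411). The gene with the largest separated difference was Hars (37.5 ± 1.40 to 47.7 ± 6.02 FPKM, log2 0.34 ± 0.091 SE, adjusted p = 0.0761). With NPCT 0 were DEGs, 6 had an unadjusted p under 0.05, a share at that of all genes (29.3%), and the median was -0.01. Vars was the gene named by the same rule (30.3 ± 0.650 to 36.9 ± 1.54 FPKM, log2 0.28 ± 0.057, adjusted p = 0.0508). NPCT against PCT gave a median of -0.20, 0 DEGs and 9 genes with an adjusted p of at most 0.05 (16.3% of all genes), all lower with NPCT, of which Farsb differed most (27.6 ± 1.76 against 38.1 ± 3.44 FPKM, log2 -0.46 ± 0.090, adjusted p = 0.0140, and up to 0.0529 over the omission of single libraries).

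Stress sensors and the eIF2 control genes (24 tested) had 1 DEG with PCT (2.31% of all genes), Ppp1r15a given above, which stands in both lists, and 2 genes with an adjusted p of at most 0.05 (4.20% of all genes). Their median was 0.07 with PCT, -0.04 with NPCT (0 DEGs, 9 with an unadjusted p under 0.05 beside 29.3% of all genes) and -0.12 for NPCT against PCT. In the last comparison 0 were DEGs and 5 of 24 had an adjusted p of at most 0.05, near the share of all genes (16.3%). These 5 were lower with NPCT and included the genes of the 3 subunits of eIF2, Eif2s1, Eif2s2 and Eif2s3 (log2 -0.41, -0.43 and -0.35, adjusted p = 0.0165, 0.0155 and 0.0204), which were singled out after their values were seen. Mbtps2, the protease that releases ATF6, differed most (7.26 ± 0.962 against 10.5 ± 1.58 FPKM, log2 -0.52 ± 0.13, adjusted p = 0.0280), and its fold change passed the threshold without PCT 3 or NPCT 2 (-0.63 and -0.62), while its adjusted p rose to 0.0877 over the omission of single libraries and to 0.0845 over the other alternatives. The kinase genes Eif2ak3 and Ern1, which encode PERK and IRE1, and Atf6 had log2 fold changes of -0.10, 0.12 and 0.07 with PCT (adjusted p = 0.599, 0.716 and 0.807).

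Other ER chaperones and folding enzymes (28 tested) had medians of 0.03 with PCT, 0.06 with NPCT and 0.01 for NPCT against PCT, which became -0.027 after quantile normalization with PCT, and -0.018 with NPCT and -0.050 between the peptides once gene length trends were removed. With PCT 0 were DEGs and 8 had an unadjusted p under 0.05 (18.9% of all genes), and Pdia5, the gene named, was at a low level (1.23 ± 0.141 to 0.718 ± 0.231 FPKM, log2 -0.74 ± 0.30 SE, adjusted p = 0.224). With NPCT 0 were DEGs and 12 had an unadjusted p under 0.05 (29.3% of all genes). Fkbp2, an ER prolyl isomerase, was 41.46, 37.42 and 41.73 FPKM with NPCT, 16.79, 12.72 and 18.22 FPKM in the controls and 16.29, 19.45 and 42.67 FPKM with PCT. PCT 3 was thus at the level of the NPCT libraries, and the difference between NPCT and vehicle (log2 1.35 ± 0.31, adjusted p = 0.0530) had an adjusted p of 0.0445 without PCT 1 and 0.00270 without PCT 3. It was a DEG in 9 of 21 alternatives, also with only the 2 groups fitted (0.0041), the replicate block (0.0385), the block and the gene length trend removed (0.0493), limma-voom (0.0325), quantile normalization (0.0496), a mean FPKM of at least 1 (0.0487) and NPCT 3 and PCT 3 both left out (0.00903). Against PCT 1 of 28 was a DEG, a share below the 5.75% of all genes, namely Sdf2l1, a partner of BiP (10.4 ± 3.55 against 5.55 ± 1.02 FPKM, log2 0.86 ± 0.22, adjusted p = 0.0311). Its adjusted p was above 0.05 without control 1, control 2, PCT 1, PCT 2, NPCT 1 or NPCT 3 (0.0519, 0.0518, 0.105, 0.0818, 0.0634 and 0.0540) and with only the 2 groups fitted (0.0873).

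Genes of ER-associated degradation (27 tested) had medians of -0.0006 with PCT, 0.01 with NPCT and -0.03 between the peptides. Herpud1, which organises the ubiquitin ligase of the ER membrane, had the largest separated difference with PCT (33.0 ± 2.77 to 24.5 ± 1.84 FPKM, log2 -0.43 ± 0.093 SE, adjusted p = 0.0402), below the fold threshold, and 0 were DEGs. Its adjusted p was 0.0391 to 0.158 over the omission of single libraries and up to 0.0636 in the other alternatives. It was higher with NPCT than with PCT (log2 0.33, adjusted p = 0.0426), the opposite direction to Hspa5 and Hsp90b1. With NPCT 0 were DEGs and 9 had an unadjusted p under 0.05, close to the share of all genes (29.3%), and Derl3, the gene named, rested on few fragments (0.263 ± 0.156 to 1.54 ± 0.966 FPKM, adjusted p = 0.122, and 0.0493 with only the 2 groups fitted). Edem2, which marks glycoproteins for degradation, was the 1 DEG of 27 between the peptides, a share below the 5.75% of all genes (11.6 ± 0.461 with NPCT against 7.42 ± 1.31 FPKM, log2 0.65 ± 0.12, adjusted p = 0.0106), and its fold change was below the threshold without PCT 1 (log2 0.56) and with the gene length trend removed, with or without the block (0.57).

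Cytosolic heat shock genes (18 tested) had medians of 0.09 with PCT, 0.02 with NPCT and -0.11 between the peptides, and that with NPCT changed sign in 5 of 21 alternatives (-0.047 after quantile normalization). Cryab, a small heat shock protein also made by glia, rose with PCT (12.3 ± 0.746 to 21.3 ± 2.39 FPKM, log2 0.79 ± 0.12 SE, adjusted p = 0.00947), the only DEG of this list in that comparison (2.31% of all genes). With NPCT 0 were DEGs and 5 had an unadjusted p under 0.05, close to the share of all genes (29.3%), and Hspa1l was the gene named (1.05 ± 0.0984 to 0.778 ± 0.0927 FPKM, adjusted p = 0.386). Hspb1 (18.4 ± 0.413 against 10.1 ± 2.83 FPKM, log2 0.90 ± 0.18, adjusted p = 0.0138) and the co-chaperone Bag3 (15.4 ± 2.02 against 9.77 ± 0.740 FPKM, log2 0.65 ± 0.12, adjusted p = 0.0101) were the 2 DEGs of 18 between the peptides (5.75% of all genes), both higher with NPCT, as were 699 of the 918 DEGs among all genes. Bag3 was below the fold threshold without PCT 1 or NPCT 3 (0.58 and 0.54) and with NPCT 3 and PCT 3 both left out (0.57).

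**Figure D4:**
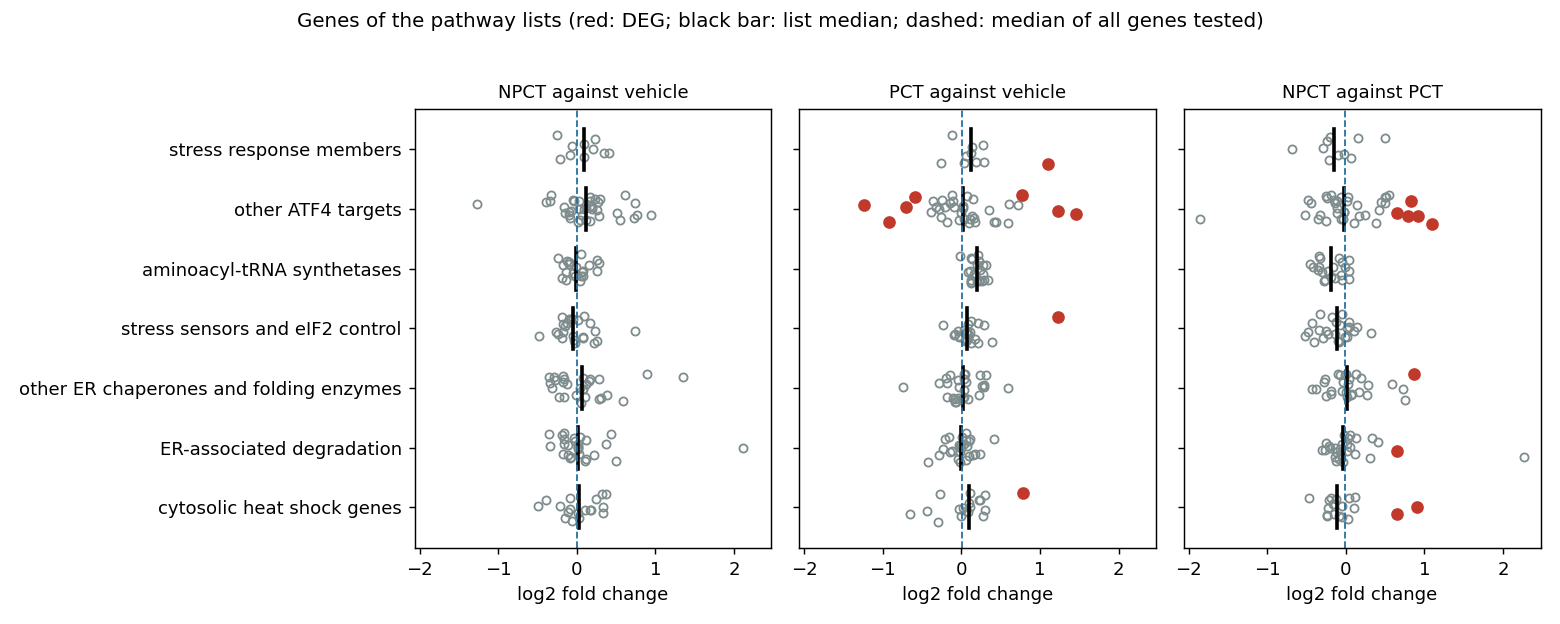
Log2 fold change of every tested gene of the members and of 6 pathway lists (rows) in the 3 comparisons; filled red points are DEGs, black bars the list medians and dashed lines the median of all genes tested. With PCT the other ATF4 targets hold DEGs on both sides of 0, while 20 of 21 genes of the aminoacyl-tRNA synthetase list lie to the right of 0 with no DEG.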

How the data were processed

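The authors aligned the clean reads with Hisat2 2.0.5 (build Rnor_6.0 in the submitters' processing notes), counted reads on genes with featureCounts 1.5.0-p3 and deposited FPKM per gene and library, and tested counts with DESeq2 1.20.0. Fragments per gene were recovered from FPKM and gene length, whose products were integer multiples of one unit per library in 100% of values above 0 (tolerance 0.02). The library size behind the deposited FPKM was not the sum of fragments (14836912 against 15187736 in PCT 1). Median-ratio library factors were equal in the 9 libraries, so the deposited FPKM were already scaled alike by that measure. FPKM divided by these factors, plus a pseudocount of 0.1, were put on the log2 scale, so fold changes of low genes are understated. Genes whose mean level reached 0.5 FPKM were fitted with limma 3.58.1 (R 4.3.3, trend prior) over all 9 libraries, and the fit was tested on simulated data. The members and lists were chosen with earlier results of these data known. All members were named. Of each list and comparison the DEG with the smallest adjusted p was named, likewise in the other direction, or, with no DEG, the largest difference with separated groups. Other DEGs, Eif4ebp1 with NPCT, Olig1, Fn1, Lum, Pdgfra, Rars, Yars, the eIF2 subunits and the sensor genes were named after their values were seen. Intervals are at 95%. Alternatives were other pseudocounts, filters and scalings, 2-group fits, limma-voom on fragments, a replicate block, removal of gene length trends and omission of each library. The omission of NPCT 3 and PCT 3 together was added after the values were seen. Promoter windows came from RefSeq (GRCr8).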

Additional observations from a re-analysis of the deposited data

Results flagged for a closer look

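In 3 members the effects of the peptides differed by a test of the difference itself at an adjusted p of at most 0.05 (limma). Chac1 was higher with NPCT than with PCT (log2 0.491, adjusted p = 0.0181), with the NPCT libraries above and the PCT libraries below the 3 controls. Hspa5 was lower with NPCT than with PCT (log2 -0.243, adjusted p = 0.0427), and so was Hsp90b1 (log2 -0.293, adjusted p = 0.0217). Each of these differences had the same direction in every alternative tried, from 0.39 to 0.56 for Chac1, from -0.32 to -0.19 for Hspa5 and from -0.40 to -0.26 for Hsp90b1, while the adjusted p exceeded 0.05 in 3, 11 and 5 of the 21 alternatives. In the same comparison 11 of 16 microglia markers and 3 of 10 astrocyte markers were DEGs, all higher with NPCT (5.75% of all genes). Of 17 neuron markers, 9 had an adjusted p of at most 0.05 (16.3% of all genes). Their median log2 fold change was -0.24, and 6 of the 17 were higher with NPCT. The part of cell types in the 3 differences was not tested.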

How the results depend on the processing

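Of 630 fold changes of the members under the alternatives, 598 kept their direction and their side of the DEG threshold, 9 (all Atf3 with PCT) lost the call, 2 (Atf3 for NPCT against PCT) gained it and 21 changed sign, all of these below the threshold. Part of the 598 was fixed in advance. Other filters, FPKM as deposited, 2-group fits, the replicate block and the omission of a library of the group not compared leave a fold change as in the main fit. Only its adjusted p can move there. The count of members called with PCT was 1 and became 0 with no filter on low values, with the replicate block, and with the block and the gene length trend removed together, and ranged from 0 to 1 over the omission of single libraries. That for NPCT against PCT was 0 and became 1 (Atf3, log2 -1.0) with NPCT 3 and PCT 3 both left out, ranging from 0 to 1 over the omission of single libraries. With NPCT against vehicle it was 0 throughout. The cause was not tested.

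Signs changed as follows. With NPCT against vehicle, the omission of NPCT 3 and PCT 3 together gave -0.0012 for Atf4, -0.12 for Trib3 and -0.031 for Sesn2, and over the omission of single libraries these ranged from -0.0012 to 0.14, from -0.12 to 0.40 and from -0.031 to 0.15. With PCT against vehicle, Hsp90b1 was -0.018 after quantile normalization and -0.00058 to 0.099 over single omissions, and Trib3 was -0.095 with both left out and -0.095 to 0.15 over single omissions. For NPCT against PCT, Ddit3 was -0.049 with the gene length trend removed, with or without the block, -0.0069 with both left out and -0.065 to 0.20 over single omissions, Atf4 was 0.0018 with limma-voom and -0.12 to 0.084 over single omissions, and Trib3 was -0.027 with both left out and -0.18 to 0.35 over single omissions.

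Replicate numbers did not pair the libraries (correlation of the departures of same-numbered libraries from -0.072 to 0.034). With the replicate block the adjusted p of Atf3 with PCT was 0.0586, and the DEGs over all genes were 319 in place of 35 for NPCT, 323 in place of 368 for PCT and 885 in place of 918 between the peptides. The count for NPCT was also 208 at a mean FPKM of at least 1, 9 with no filter, 189 after quantile normalization, 579 with only the 2 groups fitted, 54 with the gene length trend removed, 175 with that and the block, 390 with limma-voom, 457 with NPCT 3 and PCT 3 left out and 0 to 562 over single omissions, the highest without PCT 3. That for NPCT against PCT was 454 with only the 2 groups fitted and 1436 with both left out. Over single omissions it was 525 to 1623, and that for PCT 172 to 398. The lowest depth behind a member was 109 fragments, for Atf3.

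Medians of the lists close to 0 also changed sign. That of the other ATF4 targets ranged from -0.026 to 0.064 with PCT and from -0.084 to 0.050 between the peptides, that of the synthetases from -0.038 to 0.053 with NPCT, that of the sensors from -0.074 to 0.00054 with NPCT, and that of ER-associated degradation from -0.040 to 0.049 with NPCT and from -0.0068 to 0.043 with PCT. The median of the synthetases with PCT (0.16 to 0.25) and between the peptides (-0.25 to -0.16) kept its sign in all 21 alternatives. In those that cannot change a fold change this was fixed in advance.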
